A study of Mus musculus with 18 samples.

Results

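The genes described here are carbonic anhydrases and bicarbonate transporters, which set the pH inside and around the cell: *Car2*, *Car5b*, *Car9*, *Car12*, *Car13*, *Slc4a2*, *Slc4a4* and *Slc4a7*. They were taken by gene name from a table of RNA-seq counts, and they were 8 of its 55491 rows. The cells were mouse tail tendon fibroblasts (TFs) that had crawled out of tail tendons in collagen gel and were passaged, then kept for 4 days in 20% O2 (normoxia) or 1% O2 (hypoxia). There were 18 libraries in 6 groups with 3 replicates each, namely Ctrl TFs, Ctrl TFs treated with Cre gesicles (vesicles that carry Cre recombinase into cells) and cKO TFs, each at both O2 levels. The labels call Ctrl TFs wild-type, whereas the study's methods describe Ctrl mice as Cre-negative with floxed *Hif1a* or as *Hif1a* flox/WT;ScxCre, and the Ctrl TFs as Cre-negative. TFs labelled cKO carried *Hif1a* flox/flox with ScxCre, in which Cre is driven by the tendon gene *Scx*. Donors were male and female mice of 4 to 6 months on a mixed C57BL6J and 129S1 background.

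Carbonic anhydrases catalyse the reversible hydration of CO2 to bicarbonate and a proton. Membrane enzymes with the active site outside the cell (CA9, CA12), cytosolic enzymes (CA2, CA13) and a mitochondrial enzyme (CA5B) do this in separate compartments, and SLC4 transporters carry bicarbonate across the plasma membrane, so that acid made in metabolism can be buffered and moved. Cells that rely on glycolysis in low O2 export more acid, and *CA9* in human cells is a widely used marker of hypoxia because its promoter binds hypoxia-inducible factors.

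RNA sequencing counted whole transcripts of all cells in a well, so a lower level from fewer cells of a type and one from less RNA per cell cannot be told apart. Library totals were between 26967440 and 51806453 counts in 17 libraries, and cKO replicate 1 in 1% O2 had 6857558. The *Hif1a* total checks the genotype labels only in part, since a count over the whole gene does not separate the floxed part from the rest. In CPM, the TMM-normalised abundance relative to library size, *Hif1a* was at 348 ± 19.6 (SD, n = 3) in Ctrl TFs and 377 ± 72.8 CPM (SD, n = 3) in TFs labelled cKO in 20% O2, so the total was not lower in the latter. In every library all 10 markers of tendon fibroblasts were above 3 counts. Of the markers of other cells, *Ptprc* and *Adgre1* (leukocytes), the 4 haemoglobin genes, *Calcr* (osteoclasts), *Adipoq*, *Plin1* and *Cfd* (fat), *Myod1*, *Ckm* and *Myh4* (muscle), *Krt5* and *Krt14* (keratinocytes) and *Acan* (cartilage) were above 3 counts in at most 3 libraries. Other genes of the same lists were above it in 18 of 18, namely *Csf1r*, *Acp5*, *Ctsk*, *Fabp4*, *Acta1*, *Krt10*, *Sox9* and *Comp*, or in 17 (*Cd68*). *Col2a1* (cartilage) was above 3 counts in 16 libraries and *Ocstamp* (osteoclasts) in 10.

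Promoters are shown for 3 members that behaved differently in 1% O2, since the binding core of hypoxia-inducible factors is ACGTG or GCGTG. *Car9* rose, *Slc4a4* fell, and *Car12*, the other membrane-bound anhydrase, passed no test. The sequences are the 250 bases before the RefSeq start of each gene on GRCm38.p6, 5′ to 3′ on the plus strand, which is the gene's own strand in all 3. Capitals mark a match to the core, here read on the opposite strand.
Car9, chr4:43506776-43507025: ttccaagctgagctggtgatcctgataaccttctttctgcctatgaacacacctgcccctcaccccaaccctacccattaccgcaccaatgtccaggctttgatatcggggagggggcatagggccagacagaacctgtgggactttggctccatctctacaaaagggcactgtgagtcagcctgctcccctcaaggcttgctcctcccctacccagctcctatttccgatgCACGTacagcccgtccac
Slc4a4, chr5:88887010-88887259: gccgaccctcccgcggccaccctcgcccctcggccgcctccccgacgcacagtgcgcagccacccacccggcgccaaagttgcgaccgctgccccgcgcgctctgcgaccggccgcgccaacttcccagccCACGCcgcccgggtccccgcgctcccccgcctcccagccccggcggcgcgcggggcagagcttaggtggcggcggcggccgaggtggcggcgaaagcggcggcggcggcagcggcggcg
Car12, chr9:66713436-66713685: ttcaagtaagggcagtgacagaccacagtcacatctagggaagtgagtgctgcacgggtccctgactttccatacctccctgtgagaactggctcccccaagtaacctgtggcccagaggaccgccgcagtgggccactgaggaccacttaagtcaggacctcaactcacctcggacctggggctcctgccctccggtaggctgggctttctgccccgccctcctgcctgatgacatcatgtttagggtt

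*Car9* had 1 ACGTG, whose letters begin 18 bases before the start, and no GCGTG. The first *Slc4a4* start had 1 GCGTG, beginning 119 bases before it, and the *Car12* window had neither. The GC content of these 250 bases was 56.4% in *Car9*, 82% in *Slc4a4* and 59.2% in *Car12*. RefSeq windows, which run from 250 bases before to 50 after a start, were matched for 6 of the 8 members (8 windows). Of these 6 members, 1 had ACGTG and 3 had GCGTG (*Slc4a2*, *Slc4a4* and *Car5b*, the last with 5 matches), on either strand. *Slc4a7*, which also fell in 1% O2, had neither motif, nor had the second *Slc4a4* window. *Car5b*, with the most matches, did not pass the test for a change in 1% O2. Whether matches go with the O2 response was not tested. Among all 32851 windows of this length, 19.6% held ACGTG, 32.4% held GCGTG and 43.8% held at least 1 of them, so both motifs are common. A match describes letters and is not a binding site.

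All 8 genes were detected, over a wide range. The median over the 18 libraries, in CPM per kilobase of exon, was 14.1 for *Slc4a2*, 3.97 for *Car13*, 3.33 for *Car5b*, 1.80 for *Slc4a4*, 1.29 for *Slc4a7*, 0.302 for *Car9*, 0.210 for *Car12* and 0.11 for *Car2*. *Slc4a2*, which encodes the chloride/bicarbonate exchanger AE2, stood at the 77.8th percentile of 16161 genes on this scale, and *Car2* at the 7.76th. The membrane-bound anhydrases *Car9* and *Car12* were therefore scarce transcripts in these cells, and *Car13* and *Car5b* were the anhydrases among the members with most RNA per length. *Slc4a2* was above *Car13* in 18 of 18 libraries and *Slc4a4* above *Slc4a7* in 17 of 18. The other neighbours in this order kept it in 11 to 15 libraries, and the ranges overlapped for every neighbouring pair. These ranges pool both O2 levels, and the order could differ between them. In Ctrl TFs mean *Car5b* and *Slc4a4* were at 2.56 and 3.41 in 20% O2. They were at 3.53 and 1.55 in 1% O2. Mean *Car9* and *Car12* in Ctrl TFs were at 0.221 and 0.241 in 20% O2 and at 1.235 and 0.18 in 1% O2. Mean *Car5b* was above *Slc4a4* at both levels in gesicle-treated TFs, as was *Car9* above *Car12* in cKO TFs.

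**Figure D1:**
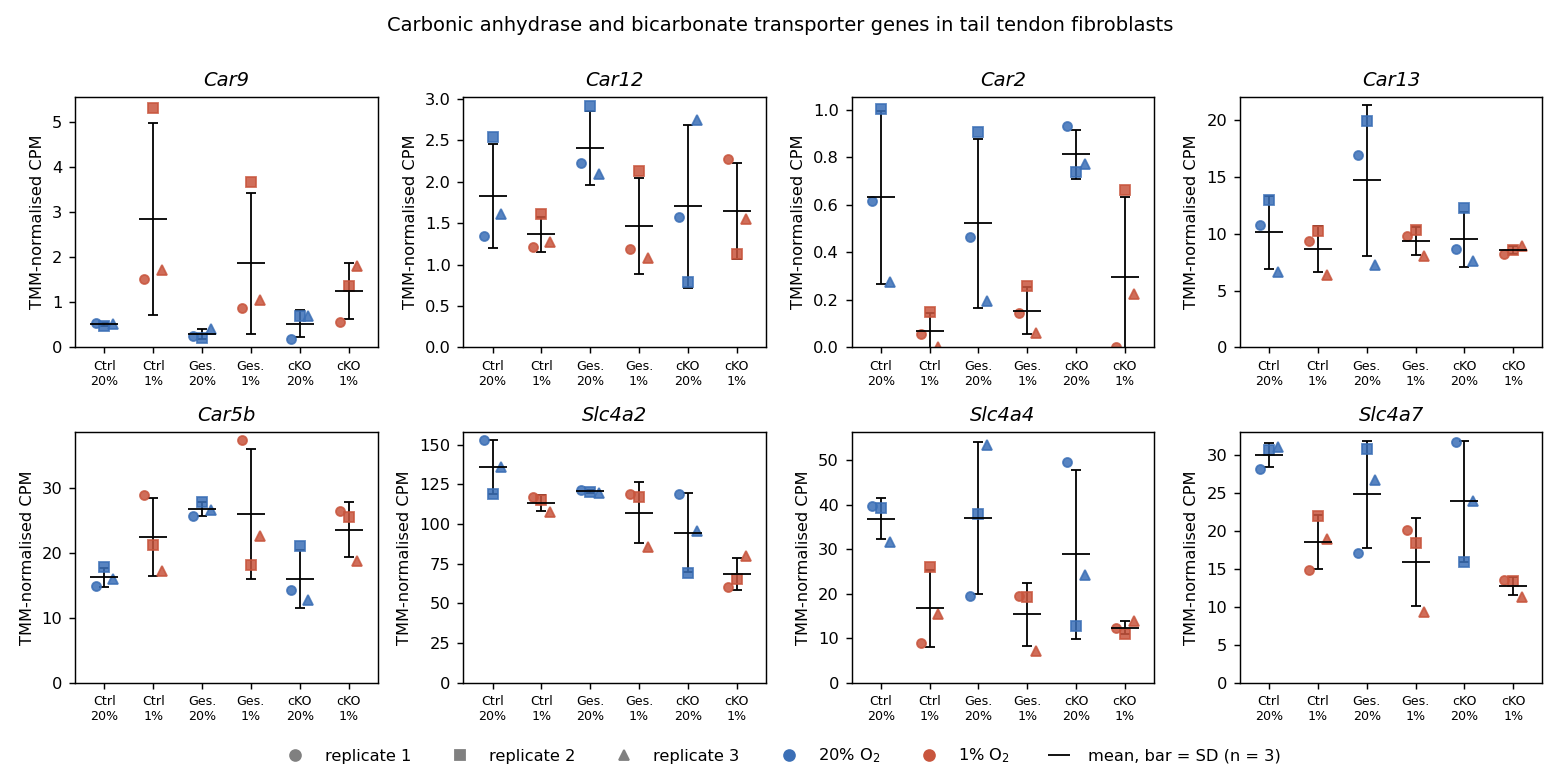
TMM-normalised CPM (vertical axes, linear from 0) of the 8 genes in each of the 18 libraries, by group (Ges., Ctrl TFs with Cre gesicles), with symbols for replicates, colours for O2 and the mean and SD in black. *Car9* was between 0.179 and 0.703 CPM in 20% O2 and between 0.569 and 5.30 CPM in 1% O2, whereas every member except *Car9* and *Car5b* had lower group means in 1% O2 in each kind of cell.

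The first question was which of these genes respond to 1% O2. Over the 3 kinds of cells together, *Car9* rose 4.41-fold, and *Car2*, *Slc4a4* and *Slc4a7* fell 4.10-fold, 2.31-fold and 1.68-fold. A gene was called when its adjusted p was under 0.05 over all genes tested (edgeR quasi-likelihood test, Benjamini-Hochberg) and its change was at least 1.5-fold. By this rule 4 of 8 members were called, 1 higher and 3 lower, against 10.5% of 16174 genes (5.36% higher and 5.13% lower). The median log2 fold change of the 8 was −0.38, beside −0.0237 over all genes. Same-numbered Ctrl and gesicle libraries deviated together, so the 18 libraries may not all be independent, and the labels do not say whether they share a mouse. With these libraries summed in pairs 4 members were again called (7.49% of genes), as with Ctrl and cKO TFs alone averaged (7.09%) and with DESeq2 (12.1%).

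*Car9*, the membrane enzyme that hydrates CO2 outside the cell, was the called member that rose. In Ctrl TFs it was at 0.536, 0.473 and 0.517 CPM in 20% O2 and at 1.52, 5.30 and 1.71 CPM in 1% O2. In gesicle-treated TFs it was at 0.255, 0.204 and 0.414 CPM in 20% O2 and at 0.871, 3.66 and 1.05 CPM in 1% O2. The groups did not overlap in either kind of cell, and replicate 2 was the highest in 1% O2 in both. In cKO TFs *Car9* was at 0.179, 0.688 and 0.703 CPM in 20% O2 and at 0.569, 1.35 and 1.80 CPM in 1% O2, and here the groups overlapped through replicate 1, which had 5 counts in 20% O2 and 4 in 1% O2. The RNA was thus scarce in every library, from 4 to 178 counts, yet 8 of the 9 libraries in 1% O2 were above all 9 in 20% O2.

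On the log2 scale *Car9* was higher in 1% O2 by 2.48 ± 0.60 (SE, adjusted p = 0.0557) in Ctrl TFs, 2.65 ± 0.66 (SE, adjusted p = 0.0425) in gesicle-treated TFs and 1.31 ± 0.60 (SE, adjusted p = 0.248) in cKO TFs. Averaged over the 3, it was 2.14 ± 0.37 (SE, adjusted p = 0.000858, edgeR). In gesicle-treated TFs *Car9* was the 1 member of 8 that was called, against 2.41% of all genes. DESeq2 also called 1 (4.53%). The edgeR call was lost when any 1 of 5 of the 6 libraries was left out (adjusted p from 0.0336 to 0.216 over the 6, with 1.70 without replicate 2 in 1% O2), and with a block for each replicate number within each kind of cell (2.39, adjusted p = 0.055, 2.92% of genes called). In Ctrl TFs, where same-numbered libraries deviated together, the same block gave 2.24 with adjusted p = 0.0407, which passes (2.32% of genes called). A block shared by all kinds of cells, which also ties same-numbered Ctrl and cKO libraries, gave 2.28 with adjusted p = 0.0573, which does not. Of 8 alternatives in Ctrl TFs, 4 called *Car9* (adjusted p from 0.00193 to 0.0634 over the 8, DESeq2 and edgeR). Among the 4 was the fit of all 18 libraries, which also gave the gesicle call. With any 1 library left out *Car9* was not called in Ctrl TFs (adjusted p from 0.0635 to 0.203, edgeR).

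Exons of *Car9* (chr4:43506966-43513729, plus strand, GRCm38) overlap those of the antisense gene *Gm12454*, and the sources used here do not state whether reads were counted by strand. *Gm12454* was higher in 1% O2 too, with a log2 fold change of 1.00 ± 0.15 (SE, adjusted p = 0.000318, edgeR) over the 3 kinds of cells. It was at 0.578 to 0.778 CPM in Ctrl TFs in 20% O2 and 1.04 to 1.24 CPM in 1% O2, without the high value that *Car9* had in replicate 2. How reads were divided between the 2 genes was not tested. Over the 18 libraries the genes whose log2 CPM followed *Car9* most closely, of 16173, were *Mycbpap* (Pearson's r = 0.868), *Derl3* (0.865) and *Ntn3* (0.86), a description over libraries that share groups and O2 levels.

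*Car12*, the other anhydrase of the membrane that acts outside the cell, passed no test. It was at 1.34, 2.54 and 1.61 CPM in Ctrl TFs in 20% O2 and at 1.22, 1.61 and 1.27 CPM in 1% O2. These groups overlapped, as they did in the other kinds of cells. Its log2 fold change over the 3 was −0.42 ± 0.24 (SE, adjusted p = 0.21, edgeR), with a 95% interval from −0.93 to 0.09, which leaves out a rise of the size seen for *Car9* (lower bound 1.35).

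*Car2*, the fast cytosolic anhydrase known from red cells, kidney and osteoclasts, was the scarcest member and fell. In Ctrl TFs it had 23, 34 and 9 counts in 20% O2 (0.617, 1.00 and 0.274 CPM) and 2, 5 and 0 counts in 1% O2 (0.0552, 0.149 and 0 CPM). In gesicle-treated TFs it was at 0.464, 0.906 and 0.197 CPM in 20% O2 and at 0.145, 0.259 and 0.0602 CPM in 1% O2. In cKO TFs it was at 0.932, 0.739 and 0.771 CPM in 20% O2 and at 0, 0.662 and 0.225 CPM in 1% O2. Groups did not overlap in Ctrl and in cKO TFs, overlapped in gesicle-treated TFs, and 6 of the 9 libraries in 1% O2 were below all 9 in 20% O2.

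The count of 0 in cKO replicate 1 allows up to 0.427 CPM in that shallow library, at 3 counts as the floor, and that of Ctrl replicate 3 allows up to 0.0778 CPM, for counting error only. Fitted differences of *Car2* were −3.19 ± 0.91 (SE, adjusted p = 0.102) in Ctrl TFs, −1.74 ± 0.82 (SE, adjusted p = 0.292) in gesicle-treated TFs and −1.17 ± 0.77 (SE, adjusted p = 0.419) in cKO TFs on the log2 scale. The average was −2.04 ± 0.49 (SE, adjusted p = 0.00686, edgeR), and with so few counts its size depends on the fit. *Ctsk*, which osteoclasts and fibroblasts both express, made up most of the summed osteoclast markers. The sum over these 4 genes was 277 to 298 CPM in Ctrl TFs in 20% O2 and 184 to 233 CPM in 1% O2, of which *Calcr* was at most 0.0591 CPM, and 3 of 4 were above the floor in any library. In gesicle-treated TFs the sums overlapped, at 242 to 303 and 205 to 285 CPM. Their part in the change of *Car2* was not tested. The haemoglobin genes were at most 0.0581 CPM.

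*Car13*, a cytosolic anhydrase whose gene lies 223 kb from *Car2* on chromosome 3, did not pass the test. It was at 10.8, 13.0 and 6.63 CPM in Ctrl TFs in 20% O2 and at 9.33, 10.2 and 6.40 CPM in 1% O2, with replicate 3 lowest at both levels. Over all 9 libraries its median was 10.8 CPM in 20% O2 and 8.90 CPM in 1% O2, and the ranges overlapped. For *Car13* the log2 fold change over the 3 kinds of cells was −0.34 ± 0.18 (SE, adjusted p = 0.193, edgeR), with an interval from −0.73 to 0.05. The 95% interval of *Car2* ran from −3.07 to −1.01, below that of its neighbour.

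*Car5b*, the mitochondrial anhydrase, was the other member besides *Car9* with a positive average. It was at 14.9, 17.8 and 16.0 CPM in Ctrl TFs in 20% O2 and at 28.9, 21.2 and 17.2 CPM in 1% O2. In gesicle-treated TFs it was at 25.6, 27.8 and 26.7 CPM in 20% O2 and at 37.3, 18.2 and 22.6 CPM in 1% O2, and in cKO TFs the group means were 16.0 and 23.6 CPM. The groups overlapped in every kind of cell. On average *Car5b* differed by 0.33 ± 0.15 (SE) on the log2 scale, with adjusted p = 0.118 (edgeR), so this difference did not pass.

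Among the transporters, *Slc4a4* encodes NBCe1, an electrogenic sodium/bicarbonate cotransporter that brings base into many cells. In Ctrl TFs it was at 39.7, 39.3 and 31.7 CPM in 20% O2 and at 8.86, 25.9 and 15.4 CPM in 1% O2. In gesicle-treated TFs it was at 19.5, 37.9 and 53.5 CPM in 20% O2 and at 19.5, 19.4 and 7.16 CPM in 1% O2. In cKO TFs it was at 49.7, 12.7 and 24.1 CPM in 20% O2 and at 12.2, 11.0 and 13.9 CPM in 1% O2. Groups did not overlap in Ctrl TFs, met at 19.5 CPM without overlap in gesicle-treated TFs (replicate 1 at both levels), and overlapped in cKO TFs, where replicate 2 was already low in 20% O2.

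The change of *Slc4a4* on the log2 scale was −1.14 ± 0.43 (SE, adjusted p = 0.222) in Ctrl, −1.27 ± 0.49 (SE, adjusted p = 0.183) in gesicle-treated and −1.21 ± 0.44 (SE, adjusted p = 0.165) in cKO TFs, none of which passed alone. Their average was −1.21 ± 0.28 (SE, adjusted p = 0.00629, edgeR).

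*Slc4a7* encodes NBCn1, an electroneutral sodium/bicarbonate cotransporter that also loads cells with base. It was at 28.2, 30.7 and 31.2 CPM in Ctrl TFs in 20% O2 and at 14.8, 21.9 and 19.0 CPM in 1% O2. In cKO TFs it was at 31.8, 15.9 and 24.0 CPM in 20% O2 and at 13.5, 13.4 and 11.3 CPM in 1% O2. Neither pair of groups overlapped. In gesicle-treated TFs the groups overlapped, at 17.1, 30.8 and 26.7 CPM in 20% O2 and 20.2, 18.4 and 9.36 CPM in 1% O2, and the highest library in 1% O2 was above the lowest in 20% O2.

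Differences of *Slc4a7* were −0.69 ± 0.22 (SE, adjusted p = 0.145) in Ctrl, −0.64 ± 0.28 (SE, adjusted p = 0.26) in gesicle-treated and −0.90 ± 0.22 (SE, adjusted p = 0.0578) in cKO TFs on the log2 scale. The average was −0.75 ± 0.17 (SE, adjusted p = 0.00436, edgeR).

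*Slc4a4* and *Slc4a7* moved together from library to library. Over the 18 libraries Pearson's r of their log2 CPM was 0.927, the highest of the 28 pairs of members, and after the mean of each group was subtracted it was 0.893. These points share groups and libraries, so the value is a description. Low libraries for one gene, such as gesicle replicate 3 in 1% O2, were low for the other as well. The TMM factors that scale each library are common to both and ran from 0.962 to 1.035.

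**Figure D2:**
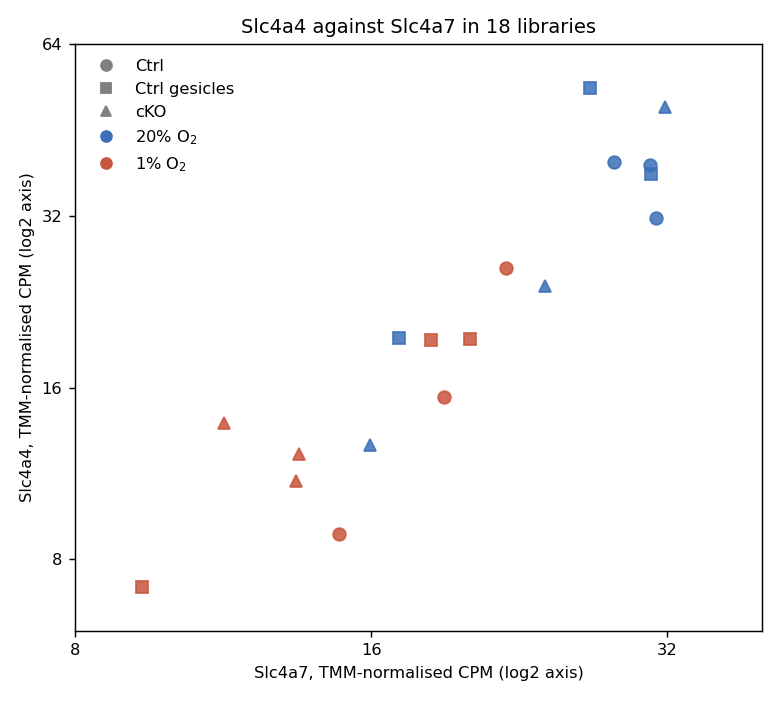
TMM-normalised CPM of Slc4a4 (vertical) against Slc4a7 (horizontal) in the 18 libraries, both on log2 axes, with symbols for the kind of cells and colours for O2. The points follow one rising line (r = 0.927), and 20% O2 libraries lie mostly above and to the right of 1% O2 libraries.

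*Slc4a2* encodes AE2, which exchanges chloride for bicarbonate and so removes base from the cell. It was at 153, 119 and 136 CPM in Ctrl TFs in 20% O2 and at 117, 115 and 107 CPM in 1% O2. It was at 122, 120 and 120 CPM in gesicle-treated TFs in 20% O2 and at 119, 117 and 85.4 CPM in 1% O2. The groups did not overlap in either kind of cell, although replicate 2 of Ctrl TFs and replicates 1 and 2 of gesicle-treated TFs differed little. In gesicle-treated TFs the lowest library in 20% O2 was at 119.7 CPM and the highest in 1% O2 at 119.1 CPM. In cKO TFs the groups overlapped, from 68.9 CPM upward in 20% O2 and up to 79.9 CPM in 1% O2. The average log2 fold change over the 3 kinds of cells was −0.30 ± 0.10 (SE, adjusted p = 0.0404, edgeR), a difference under 1.5-fold and so not a call. Exons of *Slc4a2* overlap those of *Fastk* on the other strand, whose average was 0.35 ± 0.08 (SE, adjusted p = 0.00435), the opposite sign.

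Within single kinds of cells few members passed. The rule called 0 of 8 members in Ctrl TFs (edgeR), against 1.88% of 15850 genes, with 4 members at an unadjusted p under 0.05 (16.1% of all genes) and 3 called by DESeq2 (4.39% of genes). In cKO TFs it called 0 of 8, against 2.1% of genes, with 5 at an unadjusted p under 0.05 (19.8% of all genes) and 1 called by DESeq2 (5.59%). Without cKO replicate 2 in 20% O2, in which *Slc4a4*, *Slc4a7* and *Slc4a2* were the lowest of their group, 4 members were called in cKO TFs, against 8.42% of genes (*Slc4a7* −1.11, *Slc4a4* −1.55, *Slc4a2* −0.62 and *Car5b* 0.82). With any of the other 5 libraries left out 0 members were called, against 0.599% to 1.18% of genes. Groups did not overlap for 5 of 8 members in Ctrl TFs, 3 in gesicle-treated TFs and 2 in cKO TFs, where 30%, 24% and 20.6% of all genes did not.

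**Figure D3:**
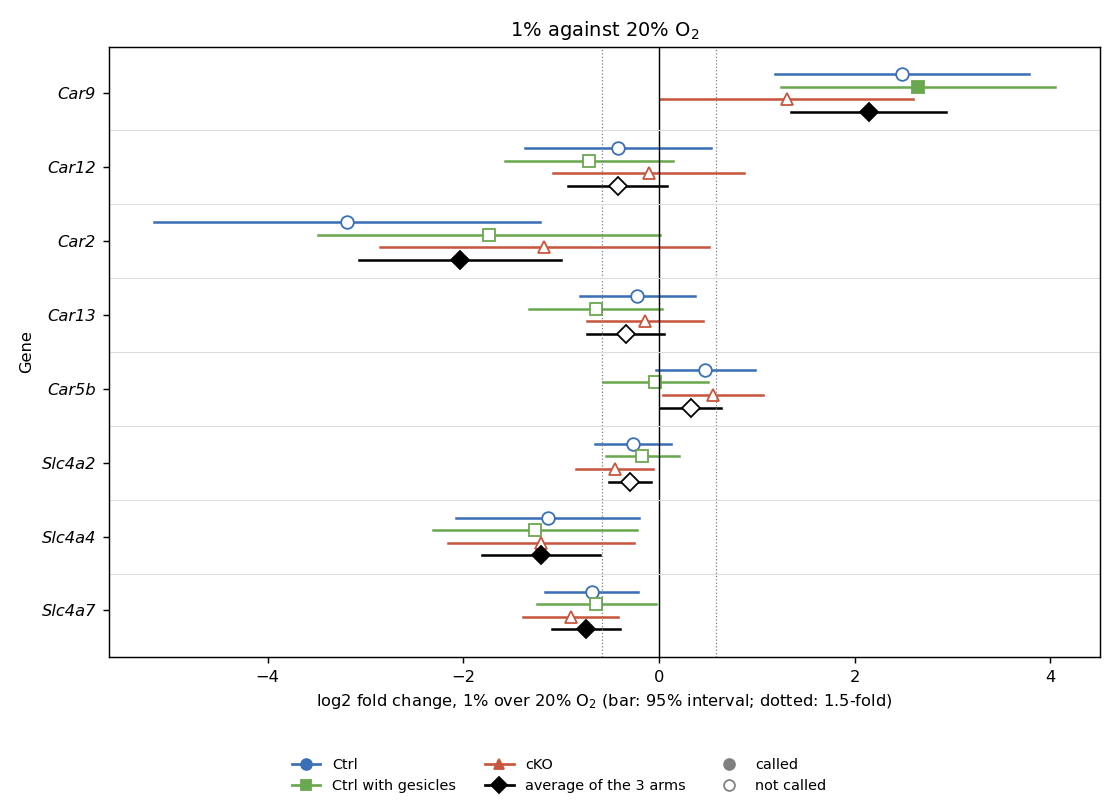
Log2 fold change of each gene, 1% over 20% O2 (horizontal axis), with 95% intervals, in Ctrl, gesicle-treated and cKO TFs and for their average; filled symbols were called and dotted lines mark 1.5-fold. *Car9* lies to the right in all 3 kinds of cells, the intervals of *Slc4a4* lie below 0 in all 3, and the intervals of *Car12* and *Car13* hold 0 throughout.

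Markers of the cells were measured in the same libraries, as sums of CPM over each list. Tendon fibroblast markers were at 14400 to 16400 CPM in 20% O2 and 7720 to 16700 CPM in 1% O2 in Ctrl TFs, and overlapped in gesicle-treated and cKO TFs too. The 4 endothelial markers were lower in 1% O2, at 27.9 to 45.5 against 11.5 to 27.6 CPM in Ctrl TFs, 25.8 to 61.3 against 17.4 to 25.2 CPM in gesicle-treated TFs and, with overlap, 37.2 to 76.6 against 16.8 to 40 CPM in cKO TFs. Nearly all of this was *Tek*, while *Pecam1*, *Cdh5* and *Kdr* were at most 0.291, 0.650 and 0.644 CPM in any library and 4 of 4 were above the floor in at least 1. In gesicle-treated TFs 3 other lists were higher in 1% O2 without overlap, the adipocyte list (1.61 to 2.41 against 3.48 to 4.56 CPM, all but a trace *Fabp4*), the muscle list (19.1 to 25.9 against 33.3 to 36.1 CPM, *Acta1*) and the chondrocyte list (328 to 519 against 526 to 905 CPM, mostly *Comp*). The muscle list was also higher in 1% O2 in cKO TFs (9.32 to 15 against 16.4 to 19.7 CPM), the keratinocyte list in Ctrl TFs (3.44 to 3.96 against 3.98 to 5.62 CPM, mostly *Krt10*), and the leukocyte list was lower in cKO TFs (2.01 to 3.11 against 0.925 to 1.99 CPM). The part of these genes in the changes of *Car9*, *Slc4a4*, *Slc4a7* and *Car2* was not tested.

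The next question was whether the members differ in TFs labelled cKO. At both O2 levels *Xist* was at 0 counts in Ctrl replicate 1 and in cKO replicates 2 and 3. It was present in Ctrl replicates 2 and 3 and in cKO replicate 1, so the genotypes were not balanced in *Xist* and may not be balanced in donor sex. With *Xist* as a covariate no member was called at either level (edgeR). No member was called, 0 of 8 in 20% O2 against 0.347% of genes and 0 of 8 in 1% O2 against 0.0379% (edgeR), and 1 and 3 members were at an unadjusted p under 0.05 (14.3% and 16.8% of all genes). DESeq2 called 0 and 1 (2.68% and 1.91% of genes). *Slc4a2* was the member with lower, non-overlapping values at both O2 levels. In cKO TFs it was at 119, 68.9 and 95.9 CPM in 20% O2 and at 60.3, 65.2 and 79.9 CPM in 1% O2, all below the Ctrl libraries at the same level given above, by little in 20% O2, where the highest cKO library was at 118.9 CPM and the lowest Ctrl library at 119.2 CPM. On the log2 scale *Slc4a2* in cKO differed from Ctrl TFs by −0.53 ± 0.18 (SE, adjusted p = 0.239) in 20% O2 and −0.72 ± 0.18 (SE, adjusted p = 0.186) in 1% O2.

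DESeq2 called the difference of *Slc4a2* in 1% O2 (−0.71, adjusted p = 0.0277), and edgeR called the average over both levels, added after the data were seen (−0.63, adjusted p = 0.0231, where 3.78% of genes were called). That average counts libraries of both O2 levels as independent, although same-numbered Ctrl libraries deviated together. With both levels of a number summed to 1 library, 3 against 3, *Slc4a2* differed by −0.52 with adjusted p = 0.283 and was not called (edgeR, 0.15% of genes called). *Fastk*, which overlaps it, differed between the genotypes by 0.03 ± 0.14 (SE) in 20% O2 and −0.12 ± 0.14 (SE) in 1% O2 on the log2 scale. *Slc4a7* had non-overlapping groups in 1% O2 (−0.55 ± 0.22, SE, adjusted p = 0.263) and differed by −0.34 ± 0.22 (SE, adjusted p = 0.462) in 20% O2. In 1% O2 *Car2* differed by 2.37 ± 0.95 (SE, adjusted p = 0.256) and *Car9* by −1.10 ± 0.57 (SE, adjusted p = 0.335), with overlapping groups. Without Ctrl replicate 2 in 1% O2 the difference of *Car9* was −0.30 and that of *Car2* 3.55 (1.3 without cKO replicate 2). These were 1 of 8 members without overlap in 20% O2 and 2 of 8 in 1% O2, where 21.2% and 27.3% of all genes had none. Summed osteoclast markers, mostly *Ctsk*, were higher in cKO than in Ctrl TFs in 1% O2 (253 to 303 against 184 to 233 CPM), keratinocyte markers in 20% O2 (4.47 to 7.59 against 3.44 to 3.96 CPM), and muscle markers were lower at both levels (9.32 to 15 against 22 to 41.8 CPM in 20% O2), all without overlap, and their part was not tested.

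Whether the response to 1% O2 depends on the genotype was tested directly. The interaction (response in cKO minus response in Ctrl) was −1.17 on the log2 scale for *Car9*, with an interval from −2.98 to 0.63, and 2.02 for *Car2*, from −0.57 to 4.60, both with adjusted p = 1 (edgeR). Without Ctrl replicate 2 in 1% O2 the interaction was −0.36 for *Car9* and 3.20 for *Car2*, and without cKO replicate 2 in 1% O2 it was 0.96 for *Car2*. Among the members 0 of 8 were called, 0 were at an unadjusted p under 0.05 and DESeq2 called 0, and over all genes edgeR called 0 (0% of 15850, with 367 at an unadjusted p under 0.05) and DESeq2 called 2 (0.0126%). For both genes the interval holds no difference as well as a difference as large as the whole response of Ctrl TFs. For *Slc4a4* the interaction was −0.07, from −1.39 to 1.25, and for *Slc4a7* −0.21, from −0.89 to 0.46.

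The last comparison was between gesicle-treated and untreated Ctrl TFs. At 20% O2 0 of 8 members were called against 0.0247% of genes, and at 1% O2 0 of 8 against 0% (edgeR), with 1 and 0 members at an unadjusted p under 0.05 (3.67% and 2% of all genes) and 0 called by DESeq2 at either level (0.284% and 0% of genes). *Car5b* in gesicle-treated TFs in 20% O2 (25.6 to 27.8 CPM) lay above all Ctrl libraries (14.9 to 17.8 CPM). The difference was 0.72 ± 0.25 (SE) on the log2 scale, with adjusted p = 1. *Car9* lay below them without overlap (−0.79 ± 0.68, SE, adjusted p = 1). These were 2 of 8 members without overlap, beside 12.5% of all genes. In 1% O2 it was 0 of 8, beside 6.32%. *Car5b* lies on the X chromosome, and *Xist* was at 0 counts in replicate 1 and present in replicates 2 and 3 of both Ctrl and gesicle-treated TFs. What lies behind the *Car5b* values was not tested. The interaction of gesicles and O2 called 0 of 8 members, with 0 at an unadjusted p under 0.05, and 0% of all genes (243 at an unadjusted p under 0.05). DESeq2 called 0 of 8 and 0% of genes.

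**Figure D4:**
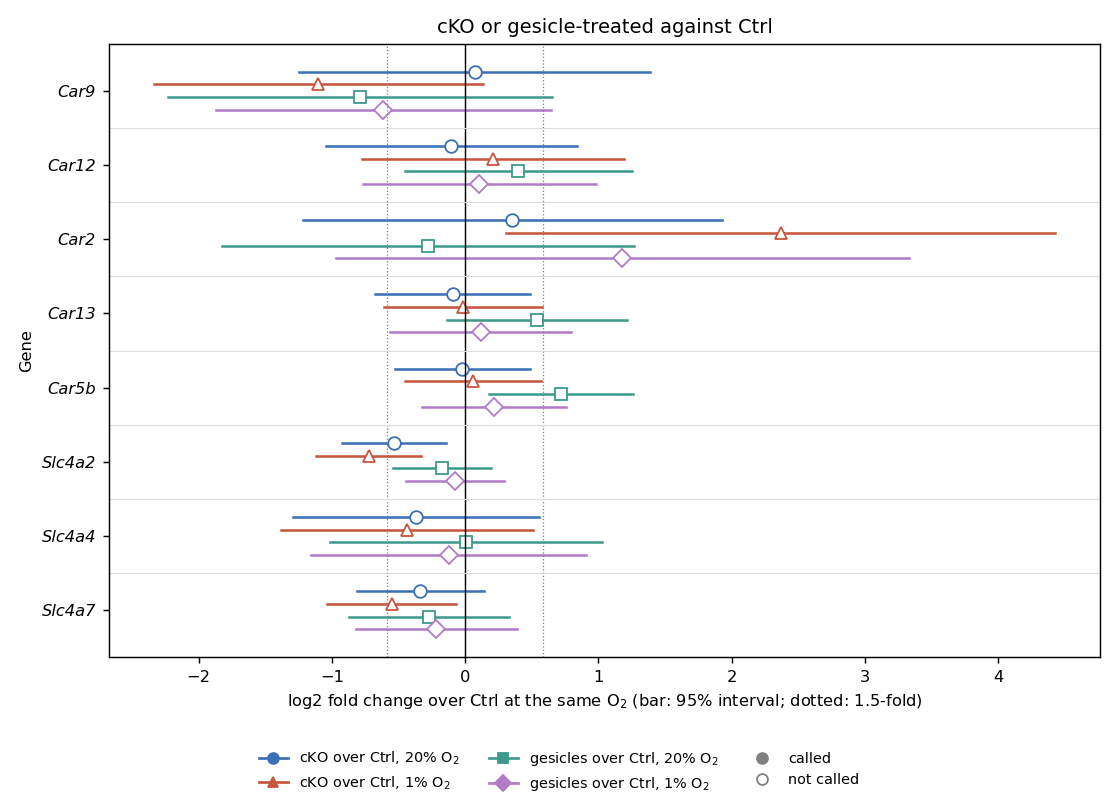
Log2 fold change of each gene over Ctrl TFs at the same O2 level (horizontal axis), with 95% intervals, for cKO TFs and for gesicle-treated TFs; dotted lines mark 1.5-fold and open symbols were not called. All symbols are open, and *Slc4a2* in cKO TFs lies below 0 at both O2 levels with intervals that leave out 0.

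Other genes that handle acid and base were counted by family for 1% against 20% O2. Among 11 other carbonic anhydrases 6 were tested, and *Car11* was the 1 called, higher in each kind of cell. *Car11* encodes a secreted relative of the carbonic anhydrases without catalytic activity. Its mean was 2.31 and 4.97 CPM in Ctrl TFs in 20% and 1% O2, 1.79 and 4.35 CPM in gesicle-treated TFs and 2.71 and 5.72 CPM in cKO TFs. Its log2 fold change was 1.11 ± 0.22 (SE, adjusted p = 0.02), 1.28 ± 0.20 (SE, adjusted p = 0.00246) and 1.07 ± 0.22 (SE, adjusted p = 0.0281) in that order (edgeR).

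Of 6 monocarboxylate transporters and chaperones, which carry lactate together with a proton, 5 were tested. *Slc16a3*, the lactate exporter MCT4, was called in each kind of cell, with log2 fold changes of 6.44, 6.10 and 5.26 in Ctrl, gesicle-treated and cKO TFs. *Bsg*, its chaperone, was called in Ctrl TFs (0.62, adjusted p = 0.0393) and was under 1.5-fold on average (0.57, adjusted p = 6.5e-05), and *Emb*, another chaperone, on average (0.97, adjusted p = 0.0062). *Slc16a1*, the lactate transporter MCT1, was lower on average, also under 1.5-fold (−0.49, adjusted p = 0.00925). Of 11 SLC26 anion exchangers 7 were tested, and the sulphate transporter *Slc26a2* fell in cKO TFs (−0.94, adjusted p = 0.0377) and on average (−0.74, adjusted p = 0.00141).

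Beside *Slc4a4* and *Slc4a7*, 7 other SLC4 genes were listed and 3 tested, and edgeR called 0 of them in any kind of cell or on average (0 at an unadjusted p under 0.05, 0 by DESeq2). Of 9 sodium/proton exchangers (*Slc9a* genes) 6 were tested on average and 0 called (1 at an unadjusted p under 0.05, 0 by DESeq2), with log2 fold changes from −0.52 to 0.14. Of 25 V-ATPase genes, the proton pump of lysosomes, 19 were tested and 0 called on average (6 at an unadjusted p under 0.05, as were 37.4% of all genes, and 0 by DESeq2). Of 4 proton channels and pumps 2 were tested and 0 called (0 at an unadjusted p under 0.05, 0 by DESeq2). Within single kinds of cells edgeR called 0 in these last 3 families (0 to 4 at an unadjusted p under 0.05, beside 16.1% to 19.8% of all genes) and DESeq2 called 0 or 1.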

How the data were processed

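Poly-A RNA-seq had been done on 18 libraries of mouse TFs. The authors trimmed reads with cutadapt 4.8, mapped them with STAR 2.7.8a to GRCm38 and estimated counts per gene with RSEM 1.3.3, per the submitters' processing notes. They deposited these estimated counts as whole numbers, without normalization. Here edgeR 4.0.16 was fitted with filterByExpr, TMM factors and a term for each group, and quasi-likelihood F tests were run over all genes kept, with the 12 Ctrl and cKO libraries (15850 genes) for comparisons among them and all 18 (16174 genes) for gesicles and for the average over the 3 kinds of cells. All 8 members passed both filters. SE is the log2 fold change over the square root of F. Levels are TMM CPM over 18 libraries, per kb of the GENCODE M21 exon union where stated. Correlations used log2 CPM with a prior count of 2. Intervals are 95%, and the floor is 3 counts, for counting error only.

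Alternatives were DESeq2 1.42.0 (the study's tool), RLE size factors, no filter, no fold minimum, a replicate block, fits of other sets of libraries, *Xist* as a covariate and each library left out. After the data were seen, a block within each kind of cells, the average over Ctrl and cKO alone, summed Ctrl and gesicle libraries, and cKO against Ctrl over both O2 levels, averaged or with libraries of a number summed, were added. The study names a paired design without its factor. Deviations of same-numbered libraries correlated at 0.271 to 0.458 between O2 levels in Ctrl TFs, 0.0921 to 0.368 in cKO TFs, −0.00612 to 0.216 in gesicle-treated TFs, and 0.193 to 0.462 between Ctrl and gesicle-treated TFs at the same O2 level, where every pair was over 0.1. Between Ctrl and cKO TFs, which the shared block also ties by number, they correlated at −0.149 to −0.0407 in 20% O2 and −5.22e-05 to 0.218 in 1% O2. The study's methods give n = 3 mice for the cultures, but no source used here ties a library to a mouse, so libraries of both O2 levels may share mice and p-values measure the spread between these libraries. The closest libraries differed by 15.3 times the sampling noise (chi-square per degree of freedom). The members, the family and marker lists and the rule for naming genes (all members, called genes of each family and the 3 genes most like a called member) were chosen with earlier results of these data known. The result of 1 marker list is not reported here. *Gm12454* and *Fastk* were named for their overlap, after values were seen. The labels give 10% serum and the study's text 1%. Scripts used R 4.3.3 and Python 3.11.15 and were tested on simulated data. Promoters came from RefSeq (GRCm38.p6).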

Additional observations from a re-analysis of the deposited data

Results flagged for a closer look

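Of 4 transgene rows of the count table, which no comparison used, 3 held counts above the 0 found in all 6 Ctrl libraries, and the mcherry row was at 0 in every library. The cre row held at most 5 counts in a library and was above 0 in 5 of 6 cKO libraries and 0 of 6 gesicle-treated libraries. The egfp row also held at most 5 counts and was above 0 in 5 of 6 cKO libraries and 0 of 6 gesicle-treated libraries. The tdtomato row held at most 3 counts and was above 0 in 5 of 6 gesicle-treated libraries and 0 of 6 cKO libraries. Groups of 3 were too small for a test of single outlying libraries, and no member responded to O2 in opposite directions in all libraries of 2 kinds of cells.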

How the results depend on the processing

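The average response to 1% O2 gave 4 called members (share of all genes called, 10.5%). There were 4 again in each of the 18 fits that left out 1 library (8.95% to 12.3% of genes), and 4 to 5 under the 8 alternatives (6.09% to 24.6%). Members called in Ctrl TFs were 0 (1.88% of genes), but 3 with DESeq2 (4.39%), 2 without the filter on low counts (1.48%) and 1 in the fit of all 18 libraries (2.68%). In the same cells 1 was called with a replicate block within each kind of cells (2.32%). None was called in the 6 fits that left out a library (0.709% to 1.59%). In cKO TFs the members called were 0 (2.1% of genes), but 1 with DESeq2 (5.59%), 1 without the filter (1.79%) and 0 to 4 with a library left out (0.599% to 8.42%). In gesicle-treated TFs the 1 call (2.41% of genes) became 0 in the fit of the 6 libraries compared (0.796%) and 0 with the replicate block within each kind of cells (2.92%). It became 0 to 1 with a library left out (0.889% to 2.07%). For cKO against Ctrl TFs in 1% O2 the 0 (0.0379% of genes) became 1 with DESeq2 (1.91%) and 1 averaged over both O2 levels (3.78%), but 0 with both levels summed (0.15%). The other comparisons stayed at 0 under each alternative run (0% to 2.68% of genes). The planned replicate block, shared by all kinds of cells, left 0 called in Ctrl TFs (1.77% of genes), 0 in cKO TFs (1.4%), 1 in gesicle-treated TFs (2.78%) and 4 on average (10.8%).

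Signs changed for 4 differences that passed no test. *Car12* in cKO TFs (−0.11) was 0.021 with the replicate block within each kind of cells and −0.44 to 0.44 with a library left out. With a library left out, *Car13* was −0.45 to 0.0003639 in Ctrl TFs and −0.28 to 0.10 in cKO TFs, and *Car5b* was −0.39 to 0.16 in gesicle-treated TFs. Of 680 recomputed fold changes of 42 values, 650 kept their sign and side of the threshold, 7 lost and 16 gained a call and 7 changed sign. The causes were not tested.

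Over all genes, calls in Ctrl TFs were 298, but 696 with DESeq2, and in cKO TFs 333, but 886 with DESeq2, 511 without the filter, 222 with the shared block and 84 in the fit of its 6 libraries. In gesicle-treated TFs they were 390, but 732 with DESeq2 and 120 in the fit of its 6 libraries. For cKO against Ctrl TFs they were 55 in 20% O2, but 425 with DESeq2, 281 without the filter and 87 in the fit of 18 libraries, and 6 in 1% O2, but 302, 111 and 14 in that order, 15 with *Xist* as a covariate and 2 with the shared block. For gesicles in 20% O2 they were 4, but 46 with DESeq2 and 23 without the filter. With a library left out, calls were 116 to 261 in Ctrl TFs, 98 to 194 in cKO TFs (1373 without replicate 2 in 20% O2), 148 to 346 in gesicle-treated TFs and 1492 to 2039 on average. For cKO against Ctrl in 20% O2 they were 1 without Ctrl replicate 1 or cKO replicate 3, 154 without cKO replicate 1 and 10 to 42 otherwise, and in 1% O2 0 to 6. Gesicles in 20% O2 gave 0 to 2. Depth limits *Car2*, *Car9* and *Car12*, above all in cKO replicate 1 in 1% O2.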
